A study of Mus musculus with 22 samples.

Results

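The genes described here are 4 transporters of lactate and related monocarboxylates, Slc16a1, Slc16a7, Slc5a12 and Slc5a8, out of 13967 genes tested in mouse kidney. They were taken by name, with earlier results of these data known. Each had 1 probe set that carries its symbol alone, so there was no choice between probe sets, and all 4 passed the filter on dim probe sets. Their RNA was measured on 22 Affymetrix whole-transcript arrays in wild-type mice (WT) and in mice labelled clock(-/-) (KO), deficient in the circadian transcription factor Clock, from a colony founded with heterozygous parents. All mice had been held in a cycle of 12 h light and 12 h dark and then in constant darkness for 30 h before the kidneys were taken. Sampling was every 4 h at zeitgeber times (ZT) 0, 4, 8, 12, 16 and 20, counted from the time the light had come on (ZT12 is when it had gone off). An array carried the pooled RNA of 2 or 3 mice, with 2 pools per genotype and time except 1 for WT at ZT8 and 1 for KO at ZT16, which makes 11 arrays per genotype. The sources used here do not give how the Clock allele was made or the strain, sex and age of the mice. The source is labelled whole kidney and the tissue left kidney.

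Slc16a1 and Slc16a7, of the Slc16 family, carry lactate, pyruvate and ketone bodies together with a proton. The direction of transport thus follows the gradients across the membrane. Slc5a12 and Slc5a8, of the sodium-coupled Slc5 family, use the inward sodium gradient to take such acids up. In the kidney, lactate passes the glomerular filter and is taken back by the proximal tubule: Slc5a12 and Slc5a8 (SMCT2 and SMCT1) work at the luminal membrane, and Slc16a1 (MCT1) is a route across the basolateral membrane. Slc16a7 (MCT2) is a related carrier with a high affinity for pyruvate and lactate.

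The arrays were alike in scale, with medians of 5.88 to 6.01 log2 and correlations of 0.980 to 0.994 between any pair. The Clock probe set itself read 8.47 to 9.16 log2 in WT and 8.73 to 9.11 in KO. Its cycle mean was called higher in KO, by 0.13 ± 0.04 log2 (limma, adjusted p = 0.0398), and its fitted amplitude was 0.31 log2 in WT and 0.10 in KO. The level thus does not fall with the deficiency that the labels name, and as the missing part of the gene is not stated, this probe set does not check the labels. More genes were called different between genotypes at ZT20 (1.75%) than at any other time. Whether the WT or the KO pools of that time depart from the rest was not tested, and the level differences below are also given without the 2 KO pools. Markers of the labelled tissue were present, with all 9 proximal tubule markers above the filter, and 3 of 4 adrenal markers lay below it. The 3 adipose markers on the array were above it. Their summed level was 6.86 to 7.92 log2 in WT and 6.88 to 9.34 in KO, with medians of 7.34 and 7.45. The part of adjoining tissue in the results was not tested. The labels do not say that the pools came from separate litters or days, and the p-values speak only of the spread among the pools at hand, which may be technical. Because whole kidney was used, fewer cells of a type and less RNA per cell cannot be told apart.

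Slc16a1 was the transporter with a large daily wave, and the 250 bases before its gene start hold a CACGTG E-box, the sequence that Clock and its partner Arntl are known to bind. It is shown beside Slc5a8, whose waves were small, with the E-box in capitals. Promoters of Slc16a7 and Slc5a12 were not analysed here, so the comparison covers 2 of the 4 transporters. The sequences are from RefSeq on GRCm38.p6 and lie on the plus strand, at chr3:104638414-104638663 and chr10:88885742-88885991, and both run 5′ to 3′ up to the gene start.
Slc16a1: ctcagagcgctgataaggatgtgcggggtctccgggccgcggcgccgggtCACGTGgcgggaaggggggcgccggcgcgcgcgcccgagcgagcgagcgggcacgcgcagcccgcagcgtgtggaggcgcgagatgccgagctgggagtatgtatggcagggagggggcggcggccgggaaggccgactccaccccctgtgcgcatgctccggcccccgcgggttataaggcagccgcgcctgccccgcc
Slc5a8: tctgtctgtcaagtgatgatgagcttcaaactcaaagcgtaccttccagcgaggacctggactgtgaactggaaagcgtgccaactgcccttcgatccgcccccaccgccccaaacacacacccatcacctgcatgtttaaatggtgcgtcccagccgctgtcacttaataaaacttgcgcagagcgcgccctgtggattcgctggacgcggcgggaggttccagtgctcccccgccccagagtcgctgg
The Slc16a1 E-box spans the bases 200 to 195 before the gene start, and it reads the same on both strands. Of 32851 RefSeq promoter windows of 250 bases, 6.02% hold CACGTG. The search also covered CACGTT (an E-box variant, 3.85% of windows), TTATGTAA (a D-box, 0.819%) and AGGTCA (a nuclear receptor site, 14.0%), on both strands, and CACGTT differs from CACGTG in its last letter, so a site can match only 1 of them. Neither window holds any of these other motifs, and the Slc5a8 window has no CACGTG either. The window of the clock gene Dbp holds none of these motifs, and that of Nr1d1 holds only CACGTT. A match describes letters only, binding was not measured, and no link between the E-box and the wave was tested.

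In WT kidney, Slc16a1 was high around the night-to-day change and low around dusk. The pools read 9.92 and 9.97 log2 (ZT0), 9.28 and 9.89 (ZT4), and 8.45 in the only pool of ZT8. They read 8.25 and 7.97 (ZT12), 9.17 and 8.99 (ZT16), and 9.63 and 9.82 (ZT20). The 3 arrays of ZT8 and ZT12 lay below all other WT arrays. The highest and lowest group means were 1.84 log2 apart, a 3.58-fold range.

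In KO kidney the same gene varied over a narrower range. KO pools read 9.99 and 10.18 log2 (ZT0), 9.87 and 9.79 (ZT4), and 9.48 and 9.15 (ZT8). Values were 9.63 and 9.42 (ZT12), 10.25 in the only pool of ZT16, and 9.89 and 10.16 (ZT20). The lowest KO values were again those of ZT8 and ZT12, but every KO array lay above the 4 lowest WT arrays, which came from ZT8, ZT12 and ZT16. The range of KO group means was 0.94 log2, or 1.91-fold, and its top is the only pool of ZT16. KO pools lay above all WT pools of the same time at 5 of 6 times and overlapped with them at ZT4. Of all genes, 9.06% had KO pools above WT pools at 4 or more times. At ZT8 and ZT16 the comparison has a group of 1 pool.

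**Figure D1:**
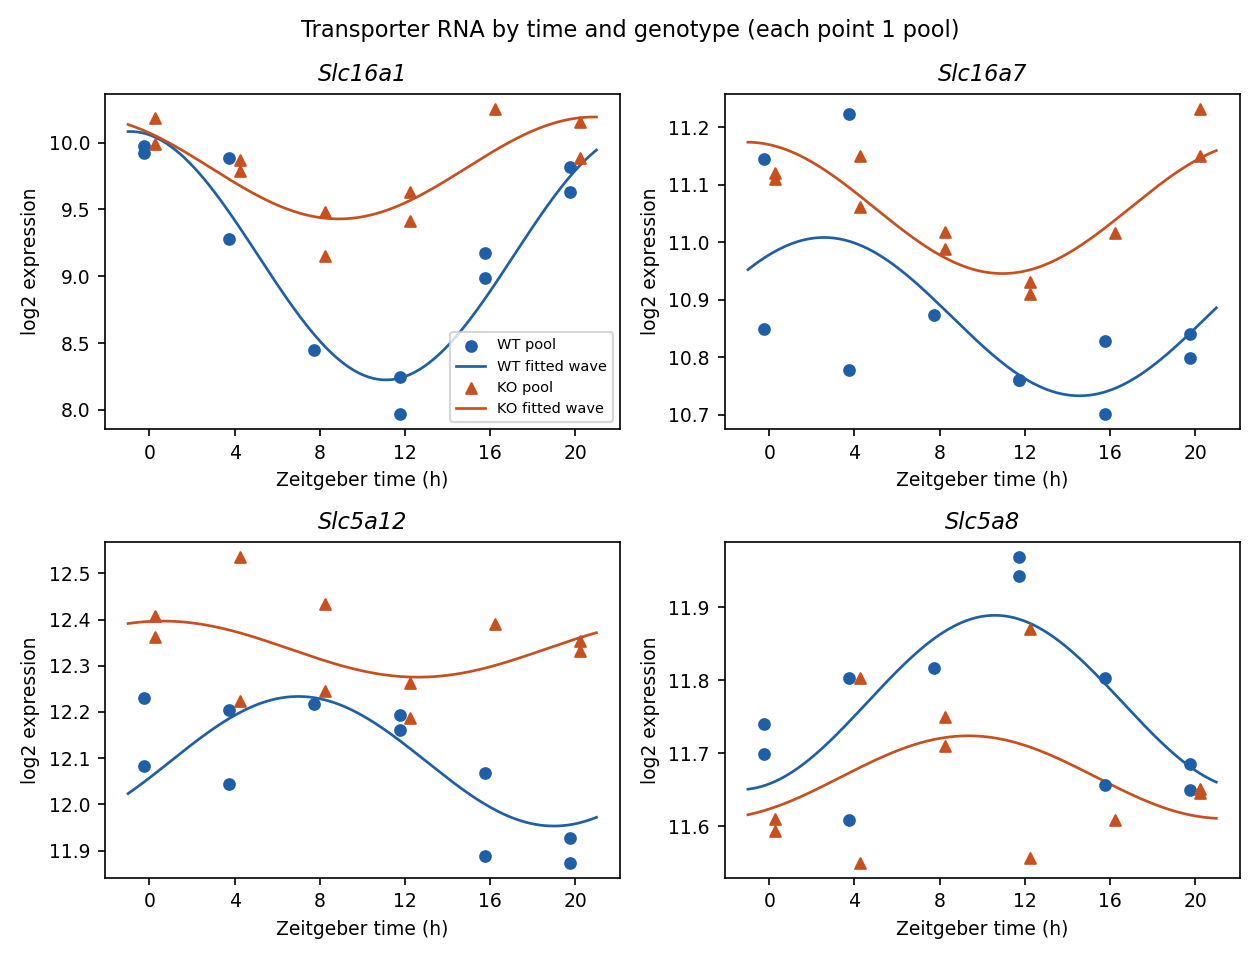
Expression of the 4 transporters by zeitgeber time. Each point is 1 array (a pool of 2 or 3 mice) in log2 units, circles for WT and triangles for KO, and lines are fitted 24 h waves; each panel has its own vertical scale. Slc16a1 in WT falls to 8.25 and 7.97 at ZT12 while KO pools there read 9.63 and 9.42, and the 6 KO groups of Slc5a12 have higher means than all WT groups.

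The mean of Slc16a1 over the cycle was 9.15 log2 in WT and 9.81 in KO. This is a difference of 0.66 ± 0.09 log2 (SE, 95% interval 0.47 to 0.84), or 1.58-fold (limma, adjusted p = 5.35e-05). It was 0.74 log2 within the 12 pools numbered 1 (adjusted p = 0.00155), 0.54 within the 10 pools numbered 2, and 0.73 without the KO pools of ZT20. The fit on the pools numbered 2 called the level of 0 genes higher and 1 lower in all, so for every transporter it gives a value and no test. Of the 4 transporters, 3 were called higher in KO and 0 lower, where 5.23% of all genes tested were called higher and 3.90% lower. As the 4 were chosen with earlier results of these data known, this count does not test them as a set. Subtracting each array's median moves the counts over all genes from 731 higher and 545 lower to 1111 and 343, a shift of the median gene from 0.00 to 0.04 log2, and it moves Slc16a1 to 0.69.

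By time, the largest difference fell on ZT12, near the WT trough. There KO exceeded WT by 1.41 ± 0.18 log2 (SE, 95% interval 1.04 to 1.79), or 2.67-fold (limma, adjusted p = 0.00321). It was 0.87 ± 0.22 log2 at ZT8 (adjusted p = 0.515) and 1.18 ± 0.22 at ZT16 (adjusted p = 0.0905). Each of those 2 comparisons rests on a group of 1 pool that is assumed to vary like the others, and neither passed the threshold. At ZT0, ZT4 and ZT20 the differences were 0.14, 0.25 and 0.30 log2, with 95% intervals that include 0.

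Of the 24 differences between genotypes at a given time, the 4 genes at 6 times each, Slc16a1 at ZT12 was the only difference called. At that time 0.122% of all genes were called, against 0.0286% at ZT0, 0.00716% at ZT4, 0.0286% at ZT8, 0.0143% at ZT16 and 1.75% at ZT20. The ZT12 difference was 1.28 log2 without the second WT pool of ZT12 (adjusted p = 0.108) and 1.31 without the first KO pool of ZT12 (adjusted p = 0.140), so the call needs both arrays.

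**Figure D2:**
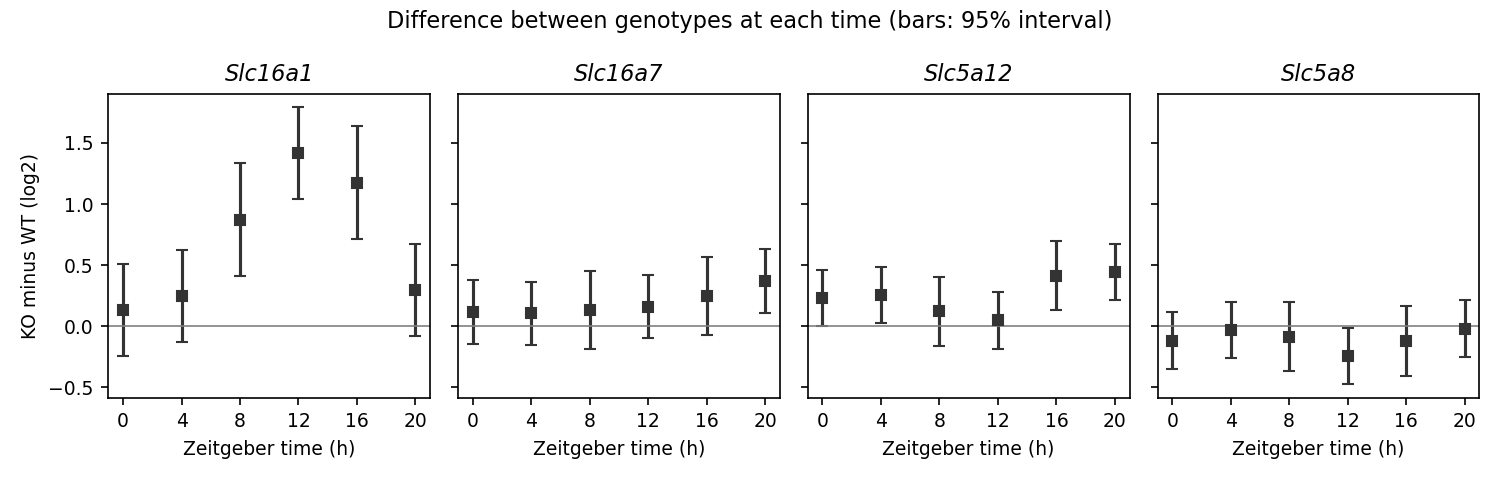
Difference between genotypes (KO minus WT, log2) at each zeitgeber time for the 4 transporters on a common scale. Squares are differences of group means and bars are 95% intervals of the limma fit. Slc16a1 reaches 1.41 at ZT12, while the values of Slc16a7, Slc5a12 and Slc5a8 lie between -0.24 and 0.44.

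A 24 h wave was fitted in each genotype, and its amplitude is the distance from the mean to the peak. Slc16a1 in WT had an amplitude of 0.93 ± 0.09 log2 (SE), a peak at ZT23.1 ± 0.37 h and a peak-to-trough ratio of 3.63 (limma, adjusted p = 4.89e-06). Its p was the 12th lowest of 13967 genes. In KO the amplitude was 0.38 ± 0.08 log2, the peak ZT20.9 ± 0.92 h and the peak-to-trough ratio 1.70 (adjusted p = 0.0421). Of the 4 transporters, 1 was called rhythmic in WT and 1 in KO, where 6.48% and 2.46% of all genes tested were called.

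The WT wave of Slc16a1 was 0.83 log2 within the pools numbered 1 (adjusted p = 0.00917) and 1.02 within those numbered 2 (adjusted p = 0.0726, in a fit that called 14 genes in all), and it kept its call without any 1 of the 22 arrays. The KO call was less firm. It was lost in 12 of 22 fits that left out 1 array, with adjusted p from 0.0503 to 0.173 in those fits, and without the KO pools of ZT20 (0.51 log2, adjusted p = 0.138), where 12 genes in all were called. The amplitude in KO was 0.26 log2 within the pools numbered 1 and 0.51 within those numbered 2, in fits that called 0 genes rhythmic in KO.

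The fitted waves of the genotypes differed by 0.65 ± 0.12 log2, measured as the length of the vector between them. The KO amplitude was 0.410 of that in WT and the KO peak was 2.22 h earlier, a shift for which no error was computed. The KO peak was at ZT22.0 without the only KO pool of ZT16 and at ZT20.5 without the first KO pool of ZT4. This difference had an unadjusted p of 0.000142, the 14th lowest of all genes, and an adjusted p of 0.133 by limma, so it was not called. In that test 0 of the 4 transporters were called, as were 0.0430% of all genes, and 1087 genes had an unadjusted p under 0.05.

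The clock genes in the same arrays give a scale for these values. Arntl, the partner of Clock, had an amplitude of 1.55 log2 and a peak at ZT22.2 in WT, and 0.62 and ZT19.0 in KO. The repressor Nr1d1 peaked at ZT6.90 in WT and ZT4.35 in KO, with amplitudes of 1.54 and 0.74. Per2, a component of the negative limb, peaked at ZT14.2 and ZT12.3, with amplitudes of 0.97 and 0.56. Dbp, an output factor, went from 1.91 at ZT9.95 in WT to a wave of 0.78 at ZT8.93 in KO that was not called (adjusted p = 0.109). In WT, then, the fitted peak of Slc16a1 came within 1 h of that of Arntl, and its amplitude was close to that of Per2. The cycle mean of Arntl was called higher in KO (1.01 log2), as was that of Slc16a1. Those of Nr1d1 (-0.55) and Dbp (-0.86) were called lower, and that of Per2 (-0.11) was not called.

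**Figure D3:**
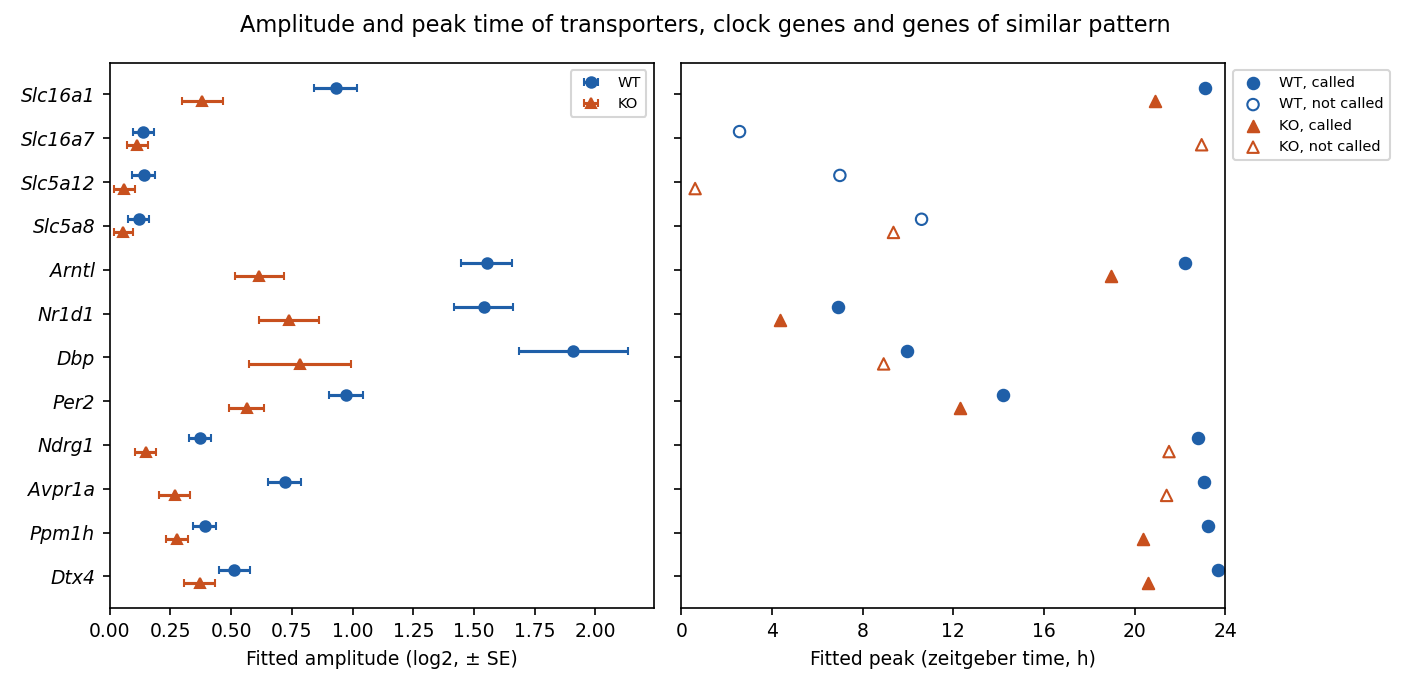
Fitted amplitude (left, log2, bars are SE) and fitted peak (right, zeitgeber time in h) for the 4 transporters, 4 clock genes and 4 genes of similar pattern to Slc16a1. Circles are WT and triangles KO, and open symbols in the right panel are waves that were not called. Slc16a1 has 0.93 in WT and 0.38 in KO, and the other 3 transporters have amplitudes of 0.14 or less in both genotypes.

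Ordered by group mean, Slc16a1 was highest in KO at ZT16, ZT0 and ZT20, followed by WT ZT0, KO ZT4, WT ZT20, WT ZT4, KO ZT12, KO ZT8, WT ZT16, WT ZT8 and WT ZT12. Of the 11 neighbouring pairs in this order, 2 did not overlap and differed by more than the pool SD of 0.18 log2: WT ZT16 above WT ZT8, and WT ZT8 above WT ZT12. Each of these 2 pairs rests on the only pool of WT ZT8, whose own spread is not known. The other 9 pairs overlapped or differed by less than that SD. The largest gap between pools of a group was 0.61 log2, at ZT4 in WT.

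The genes whose values were most like those of Slc16a1 over the 22 arrays were Ndrg1 (Pearson r = 0.970), Arntl (0.949), Avpr1a, the V1a vasopressin receptor (0.945), Ppm1h, a protein phosphatase (0.939), and Dtx4, a ubiquitin ligase (0.923). These points share arrays, pools and sampling times, so r is a description. Since they were chosen for likeness to Slc16a1, their shared timing and direction follow from that choice: their WT peaks lay between ZT22.2 and ZT23.7 and their level differences between 0.22 and 1.01 log2. Ndrg1 and Avpr1a had KO amplitudes of 0.15 and 0.27 log2, against 0.37 and 0.72 in WT, and their KO waves were not called. Ppm1h and Dtx4 had KO amplitudes of 0.28 and 0.37 log2, against 0.39 and 0.51 in WT. The KO waves of Ppm1h, Dtx4 and Arntl were called. Within genotypes, Ndrg1 followed Slc16a1 with r = 0.970 in WT and 0.953 in KO, and Arntl with 0.960 and 0.823. The promoter windows of Arntl (2 of them) and Avpr1a hold none of the 4 motifs, and that of Ppm1h holds AGGTCA. Windows of Ndrg1 and Dtx4 were not available.

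Slc16a7 was higher in KO by a small margin. Its WT pools read 10.85 and 11.14 log2 (ZT0), 10.78 and 11.22 (ZT4), 10.87 (ZT8), 10.76 and 10.76 (ZT12), 10.70 and 10.83 (ZT16), and 10.80 and 10.84 (ZT20). Its KO pools read 11.12 and 11.11, 11.06 and 11.15, 10.99 and 11.02, 10.91 and 10.93, 11.02, and 11.15 and 11.23 at the same times. The second WT pools of ZT0 and ZT4 stood within the KO range, and the other 9 WT arrays lay below the lowest KO array. KO pools lay above WT pools at 4 of 6 times, as did those of 9.06% of all genes at 4 or more times, and the groups overlapped at ZT0 and ZT4.

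The cycle mean of Slc16a7 was 10.87 log2 in WT and 11.06 in KO, a difference of 0.19 ± 0.05 (SE, 95% interval 0.09 to 0.28), or 1.14-fold (limma, adjusted p = 0.0106). The call was lost without the KO pools of ZT20 (0.17 log2, adjusted p = 0.0806). It was 0.25 log2 within the pools numbered 1 (adjusted p = 0.0129) and 0.11 within those numbered 2. The differences at single times ran from 0.11 at ZT4 to 0.37 at ZT20 and had the same sign at 6 of 6 times, and none was called (adjusted p = 0.136 at ZT20). How many of all genes had the same sign at all 6 times was not counted.

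Markers of several other cell types were also called higher in KO, where 5.23% of all genes were. Of 4 distal convoluted tubule markers 3 were called, namely Trpm6 (0.37 log2), Pvalb (0.31) and Calb1 (0.24), and Slc12a3 was not (0.14, adjusted p = 0.0539). Their summed level was 12.69 to 13.03 log2 in WT and 12.96 to 13.16 in KO. Of 5 intercalated cell markers 3 were called higher, with a summed level of 11.29 to 11.55 in WT and 11.45 to 11.70 in KO. The principal cell list had 2 of 5 higher, Avpr2 (0.28) and Scnn1g (0.20), with 12.02 to 12.30 in WT and 12.07 to 12.25 in KO, and the endothelial list 2 of 5, Plvap (0.33) and Pecam1 (0.30), with 11.64 to 11.90 and 11.80 to 12.04. Of 4 thick ascending limb markers Kcnj1 was higher (0.21) and Umod lower (-0.09), and of the podocyte, stromal and immune markers 0 were called. The part of these markers in the Slc16a7 difference was not tested.

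Waves of Slc16a7 were not called. The WT amplitude was 0.14 ± 0.04 log2 with a peak at ZT2.57 ± 1.32 h (limma, adjusted p = 0.123), and the KO amplitude was 0.11 ± 0.04 with a peak at ZT23.0 ± 1.59 h (adjusted p = 0.364). Without the first WT pool of ZT4 the WT amplitude was 0.19 and was called (adjusted p = 0.0220). The pools of WT ZT4 were 0.45 log2 apart, more than those of any other group for this gene. The difference between the waves was 0.12 ± 0.07 log2 (adjusted p = 0.769).

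By group mean, the order of Slc16a7 was KO ZT20, ZT0, ZT4, ZT16 and ZT8, then WT ZT4, WT ZT0, KO ZT12, and WT ZT8, ZT20, ZT16 and ZT12. In 0 of 11 neighbouring pairs did the pools both fail to overlap and differ by more than the pool SD of 0.12 log2. The 5 genes most like it were Prps2 (r = 0.901), Car12, a carbonic anhydrase (0.899), Pla2g5, a secreted phospholipase (0.899), Sri (0.898) and Folh1 (0.895). Of these, 4 were called higher in KO, Folh1 by 0.48 log2, Pla2g5 by 0.35, Car12 by 0.17 and Prps2 by 0.17, and Sri was not (0.11, adjusted p = 0.0571). Over all genes 5.23% were called higher. The 5 genes were chosen for likeness over the arrays of both genotypes, so their direction follows from that choice.

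Slc5a12, the low-affinity luminal carrier, had a higher cycle mean in KO. Its WT pools read 12.08 and 12.23 log2 (ZT0), 12.04 and 12.20 (ZT4), 12.22 (ZT8), 12.19 and 12.16 (ZT12), 11.89 and 12.07 (ZT16), and 11.87 and 11.93 (ZT20). Its KO pools read 12.41 and 12.36, 12.22 and 12.53, 12.25 and 12.43, 12.19 and 12.26, 12.39, and 12.33 and 12.35 at those times. Of the 11 KO arrays, 9 lay above the highest WT array, and 7 WT arrays lay below the lowest KO array. Such counts mix arrays of different times. The share of all genes that separate as far was not counted, here or for the other transporters. The pools overlapped only at ZT12, and KO was above WT at the other 5 times. The genes with KO pools above WT pools at 4 or more of 6 times were 9.06% of all tested, and Slc16a1, Slc16a7 and Slc5a12 are among them.

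The cycle mean of Slc5a12 was 12.09 log2 in WT and 12.34 in KO, a difference of 0.24 ± 0.04 (SE, 95% interval 0.15 to 0.34), or 1.18-fold (limma, adjusted p = 0.00124). It was 0.25 log2 without the KO pools of ZT20 (adjusted p = 0.00792), 0.25 within the pools numbered 1 (adjusted p = 0.0327) and 0.22 within those numbered 2. At single times the differences were 0.05 log2 at ZT12, 0.41 at ZT16 and 0.44 at ZT20, and between 0.12 and 0.26 at the other times. None was called, the nearest being ZT20 (adjusted p = 0.0531). That value passed the threshold without any 1 of the 4 pools of ZT4 (adjusted p = 0.0393 without a KO pool and 0.0456 without a WT pool). It also passed with the 50th percentile filter (0.0334), a trended robust spread (0.0205), array weights (0.0460) or the pool number as a replicate block (0.0219).

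All 6 KO groups of Slc5a12 ranked above all 6 WT groups, in the order KO ZT16, ZT0, ZT4, ZT20, ZT8 and ZT12, then WT ZT8, ZT12, ZT0, ZT4, ZT16 and ZT20. In 0 of 11 neighbouring pairs did the pools both fail to overlap and differ by more than the pool SD of 0.11 log2. The WT wave had an amplitude of 0.14 ± 0.05 log2 and a peak at ZT7.00 ± 1.16 h (limma, adjusted p = 0.145), and the KO wave 0.06 ± 0.04 (adjusted p = 0.791). The waves differed by 0.16 ± 0.06 log2 (adjusted p = 0.653). The genes of most similar values were the cationic amino acid transporters Slc7a2 (r = 0.896) and Slc7a7 (0.893), then Mfsd14b (0.885), Ppat (0.875) and the integrin Itga8 (0.874). Slc7a2 and Slc7a7 were called higher in KO, by 0.24 and 0.20 log2, and Itga8 by 0.50, while Mfsd14b (0.14) and Ppat (0.12) were not called. Over all genes 5.23% were called higher, and the direction of these genes follows from their choice for likeness to Slc5a12.

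Slc5a8, the high-affinity luminal carrier, had lower values in KO at all 6 times without passing the test. Its WT pools read 11.74 and 11.70 log2 (ZT0), 11.80 and 11.61 (ZT4), 11.82 (ZT8), 11.94 and 11.97 (ZT12), 11.66 and 11.80 (ZT16), and 11.65 and 11.69 (ZT20). Its KO pools read 11.61 and 11.59, 11.55 and 11.80, 11.71 and 11.75, 11.56 and 11.87, 11.61, and 11.65 and 11.65 at those times. The WT pools of ZT12 stood above every KO array, and 4 of the 11 KO arrays lay below the lowest WT array. The other arrays of the genotypes overlapped. KO pools lay below WT pools at 4 of 6 times, as did those of 6.64% of all genes at 4 or more times, and overlapped with them at ZT4 and ZT20.

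The cycle mean of Slc5a8 was 11.77 log2 in WT and 11.67 in KO, a difference of -0.10 ± 0.04 (SE, 95% interval -0.19 to -0.01), or 0.932-fold (limma, unadjusted p = 0.0264, adjusted p = 0.140). The interval, which is not adjusted for the number of genes tested, leaves out 0, while the adjusted test did not call the difference. A small decrease is thus neither called nor shown to be absent. The level difference was -0.12 log2 without the KO pools of ZT20, -0.15 within the pools numbered 1 and -0.03 within those numbered 2, none of them called. The largest difference at a given time was -0.24 ± 0.11 log2 at ZT12 (adjusted p = 0.657).

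The amplitudes of Slc5a8 were 0.12 ± 0.04 log2 in WT, with a peak at ZT10.6 ± 1.35 h (limma, adjusted p = 0.191), and 0.06 ± 0.04 in KO (adjusted p = 0.790). The waves differed by 0.07 ± 0.06 log2 (adjusted p = 0.875). In the order of group means, WT ZT12 was highest and lay 0.14 log2 above WT ZT8, which is more than the pool SD of 0.11. WT ZT8 holds 1 pool, so its own spread is not known. After WT ZT8 came KO ZT8, WT ZT16, WT ZT0, KO ZT12, WT ZT4, KO ZT4, WT ZT20, KO ZT20, KO ZT16 and KO ZT0, and these other 10 neighbouring pairs overlapped or differed by less than the pool SD. The most similar genes were Csnk1g3, a casein kinase (r = 0.877), Atrnl1 (0.874), Ywhaz, a 14-3-3 protein (0.864), Ttc39c (0.858) and Phkg2, a phosphorylase kinase subunit (0.855). Of these Ttc39c was called lower in KO (by -0.46 log2) and so was Atrnl1 (-0.21), and the others were not called. Over all genes 3.90% were called lower, and the direction of these genes follows from their choice for likeness to Slc5a8.

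The proximal tubule is where both Slc5 carriers work. Of its 9 markers 2 were called higher in KO, Gatm (0.23 log2) and Slc5a2 (0.20), and 1 lower, Slc7a13 (-0.18), where 5.23% of all genes were called higher and 3.90% lower. Their summed level was 15.53 to 15.63 log2 in WT and 15.58 to 15.69 in KO, with a median of 15.60 in both. The part of tubule makeup in the Slc5a12 difference was not tested.

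Over the 22 arrays, Slc16a1 had r = 0.67 with Slc16a7, 0.26 with Slc5a12 and -0.80 with Slc5a8. The last value was -0.86 within WT and -0.58 within KO, so arrays with higher Slc16a1 tended to have lower Slc5a8 in each genotype. Slc16a7 and Slc5a12 had r = 0.74 over all arrays, 0.54 within WT and 0.56 within KO. The 2 sodium-coupled carriers had r = -0.06 over all arrays, 0.44 within WT and 0.34 within KO. All these values share the same 22 arrays and sampling times.

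Related genes were counted from 6 lists, of which 54 of 62 members were tested. The lists, too, were chosen with earlier results of these data known. Over the lists 8 members were called higher in KO, 8 lower and 38 not, where 5.23% of all genes were called higher and 3.90% lower. The median difference was 0.00 log2, as over all genes. In WT 8 were called rhythmic, in KO 4, and 0 for the difference between waves, where the shares of all genes were 6.48%, 2.46% and 0.0430%. Without the KO pools of ZT20 the counts were 6 higher, 4 lower and 0 rhythmic in KO, in a fit that over all genes called 374 higher, 265 lower and 12 rhythmic in KO.

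Among 11 other Slc16 genes tested of 12 listed, 2 rose in KO, 1 fell and 8 were not called, beside 5.23% of all genes that rose and 3.90% that fell. Slc16a4 was higher by 0.23 ± 0.04 log2 (limma, adjusted p = 0.000768) and Slc16a10, an aromatic amino acid carrier, by 0.17 ± 0.05 (adjusted p = 0.0313). Slc16a14 was lower, at -0.34 ± 0.08 (adjusted p = 0.00553). It was the only Slc16 gene besides Slc16a1 with a called wave in both genotypes, 0.35 log2 at ZT14.8 in WT and 0.38 at ZT13.5 in KO. Slc16a6 (0.40 at ZT19.2) and Slc16a11 (0.17 at ZT9.63) had called waves in WT, and neither was called in KO.

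Among 8 other Slc5 genes tested of 11 listed, 4 rose in KO, 1 fell and 3 were not called, beside 5.23% and 3.90% of all genes, and the median was 0.11 log2. The risers were Slc5a9 (0.23 log2, limma adjusted p = 0.000131), the luminal glucose carrier Slc5a2 (0.20, adjusted p = 0.00262), Slc5a11 (0.20, adjusted p = 0.000245) and Slc5a10 (0.13, adjusted p = 0.0208). Slc5a1 (0.07, adjusted p = 0.217), Slc5a3 (0.09, adjusted p = 0.397) and Slc5a5 (-0.06, adjusted p = 0.536) were not called. Slc5a2 is also a proximal tubule marker. Slc5a6, a vitamin carrier, was lower at -0.23 log2 (adjusted p = 0.0208), and it had a called wave in WT (0.34 at ZT9.71). The partner proteins were not called: Bsg, the chaperone of Slc16a1, differed by -0.02 log2, Emb, which serves Slc16a7, by 0.06, and the scaffold Pdzk1 by -0.05.

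Of the enzymes and carriers of lactate and pyruvate, 20 of 22 were tested, 0 rose in KO, 4 fell and 16 were not called, beside 5.23% of all genes that rose and 3.90% that fell. Ldhd, the mitochondrial D-lactate dehydrogenase, fell by 0.72 ± 0.10 log2 (limma, adjusted p = 0.000109). Mpc1, a subunit of the mitochondrial pyruvate carrier, was at -0.21 (adjusted p = 0.00290), the kinase Pdk3 at -0.21 (adjusted p = 0.0201) and malic enzyme Me1 at -0.16 (adjusted p = 0.0238). The L-lactate dehydrogenase subunits Ldha (-0.02) and Ldhb (-0.04) were not called. Called waves in WT were those of Pck1, a gluconeogenic enzyme (0.34 log2 at ZT15.1), the phosphatase Pdp2 (0.22 at ZT3.66) and the kinase Pdk2 (0.21 at ZT7.90), and in KO that of Ldhd (0.46 at ZT8.66).

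Of 7 ketone body and short-chain acid enzymes tested of 9 listed, 2 rose in KO and 5 were not called, beside 5.23% of all genes that rose. They were the acyl-CoA synthetases Acss1 (0.27 log2, limma adjusted p = 0.00121) and Acss3 (0.23, adjusted p = 0.0295). Acss2, of the same family, was not called for its level (-0.06) and had a called wave in KO (0.19 at ZT7.45). Of 5 urate and organic anion transporters linked to monocarboxylates, 2 fell, Slc17a3 (-0.16 log2, limma adjusted p = 0.0186) and Slc17a1 (-0.14, adjusted p = 0.00994), and 3 were not called, beside 3.90% of all genes that fell. Slc2a9, a urate carrier, had called waves in WT (0.39 at ZT9.76) and KO (0.24 at ZT9.00).

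**Figure D4:**
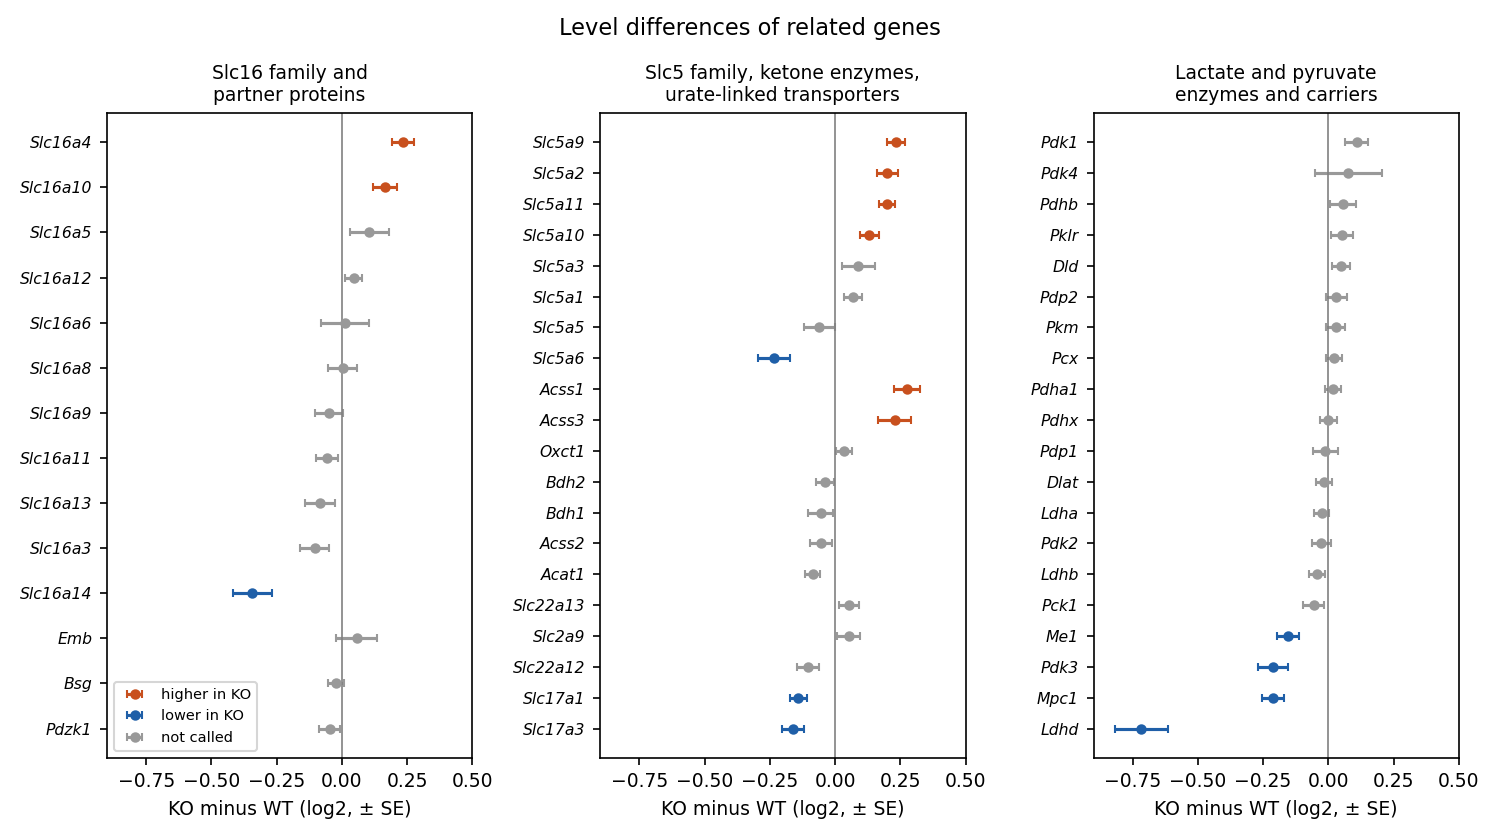
Difference of the cycle means (KO minus WT, log2, bars are SE) for the 54 tested genes of the 6 related lists, in 3 panels. Orange points are called higher in KO, blue lower and grey not called. Ldhd lies furthest from 0, at -0.72, and Acss1 is highest, at 0.27.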

How the data were processed

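The authors deposited log2 expression per probe set, and the submitters' processing notes name RMA. This method subtracts background, quantile-normalizes the arrays and combines each set's probes, which would remove a shift shared by most genes. Which software version and genome build were used is not given in the sources used here. There is no read depth, and precision is limited by the number of arrays.

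Of 35556 probe sets, 21789 carry 1 symbol in the platform annotation, 1621 carry several and 12146 stay unnamed. Of the first, 21698 matched RefSeq (GRCm38.p6) by gene number. Those below the 30th percentile of the mean were left out, and the brightest stood for each gene, which left 13967 genes. No level of a probe set was set against that of another.

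With limma 3.58.1 in R 4.3.3, a mean, cosine and sine of a 24 h period per genotype were fitted to all 22 arrays (16 residual degrees of freedom), and separately the 12 group means (10). Calls are at a Benjamini-Hochberg adjusted p under 0.05 over all genes, and errors are standard errors. The scripts were tested on simulated data. The members and lists were chosen with earlier results of these data known. Named genes are the 4 transporters, up to 4 called members per list and test with the largest values, the 5 genes with the highest Pearson r to each transporter, 4 clock genes, Clock and the markers beside a result.

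Alternatives were the filter, all probe sets, array scaling, the replicate block, the estimate of spread, array weights, other wave models, each pool number alone, the KO pools of ZT20 left out, and each array left out in turn.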

Additional observations from a re-analysis of the deposited data

How the results depend on the processing

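No level difference of the 4 transporters changed sign under the alternatives run. Amplitudes and differences between waves are lengths and cannot change sign. The level differences of all 4 transporters kept their side of the threshold in 22 of 22 fits without 1 array (Slc16a1 0.601 to 0.724 log2, Slc16a7 0.157 to 0.221, Slc5a12 0.221 to 0.262, Slc5a8 -0.125 to -0.0801), as did the WT wave of Slc16a1 (0.856 to 0.960). With a free level at each time the Slc16a7 level was 0.189 log2 (limma, adjusted p = 0.0519), and without the KO pools of ZT20 it was 0.165 (0.0806). The 10 pools numbered 2 alone gave 0.536 log2 for the level of Slc16a1, 0.110 for Slc16a7, 0.221 for Slc5a12 and 1.02 for the WT wave of Slc16a1, none called, but that fit called the level of 1 gene and the WT wave of 14 genes in all, so the lost calls say nothing about these genes. The KO wave of Slc16a1 lost its call with no filter (0.382 log2, 0.0623), a free level at each time (0.468, 0.152), without the KO pools of ZT20 (0.514, 0.138), with pool 1 alone (0.257) and with pool 2 alone (0.513), where 0 genes in all were called. Without 1 array it ran from 0.319 to 0.454. The 12 arrays whose absence ended that call were WT ZT0 pool 2, WT ZT8, WT ZT16 pool 2, WT ZT20 pool 1, both KO pools of ZT0, ZT8 and ZT12, KO ZT4 pool 2 and KO ZT20 pool 2. The Slc16a7 WT amplitude ran from 0.0923 to 0.190 and was called only without WT ZT4 pool 1 (adjusted p = 0.0220). The cause of these changes was not tested.

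Differences called at a given time, 1 in the report, were 2 with the 50th percentile filter, 2 with array weights and 3 with trended robust spread, and ran from 0 to 3 without 1 array. The added calls were Slc5a12 at ZT20 and Slc16a1 at ZT16, and the count was 0 without WT ZT12 pool 2 or KO ZT12 pool 1. List members rhythmic in KO, 4 in the report, were 7 with array weights, 1 with a free level, 2 with each genotype alone, 0 without the KO pools of ZT20, 0 with pool 1 or pool 2 alone, where 0 of all genes were called, and 0 to 5 without 1 array. List members rhythmic in WT, 8 in the report, were 4 with a free level, 4 with each genotype alone, 2 with pool 1 and 0 with pool 2. List members higher in KO, 8 in the report, were 3 with pool 1, 0 with pool 2 and 5 to 9 without 1 array, and those lower, also 8, were 4 without the KO pools of ZT20, 2 with pool 1 and 0 with pool 2.

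The pool numbers are shared between groups, but nothing in the labels says that they pair samples, and the check does not settle it. The differences between pools 1 and 2 correlated between genotypes by 0.361 at ZT0, 0.394 at ZT4, 0.00355 at ZT12 and 0.181 at ZT20, so not every pair passed 0.1, and by -0.411 to 0.547 (median 0.119) over all pairs of groups. With the pool number as a replicate block the levels were 0.657, 0.189, 0.243 and -0.102 log2 for Slc16a1, Slc16a7, Slc5a12 and Slc5a8, with the same calls, and 2 differences at a given time were called, the added call being Slc5a12 at ZT20 (adjusted p = 0.0219). With 2 pools per group at most, small differences such as that of Slc5a8 are not resolved.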
